A study of Mus musculus with 6 samples.

Results

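The genes described here are 40 genes of DNA replication and mitosis, chosen by name with earlier results of these data known. Of these, 18 have products that copy DNA in S phase. The other 22 have products that act in the entry into, course of and exit from mitosis. All 40 were looked up among the 22180 genes to which the array's annotation gives a feature of their own. Of the 40, 38 had one, on 40 features. Rfc4, a clamp loader subunit, lies on a feature that also lists another gene, and Ccnb1, a mitotic cyclin, has no listed feature, so neither was measured here. Rrm2 and Fen1 have 2 features each.

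The samples were cultures of R1, a male line of mouse embryonic stem cells from a 129X1 x 129S1 cross, grown on gelatin with fetal bovine serum and with LIF, which sustains their self-renewal. One group was kept for 3 days with AA2G, a glucose-linked derivative of ascorbic acid (vitamin C), at 0.74 mM (250 µg/ml). The other had 3 days without it, and each group has 3 cultures that the design text calls independent, with 1 array each. All cultures are of a single cell line. Values are log2 expression levels, and all changes are AA2G minus untreated.

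In dividing cells, the MCM helicase is loaded on origins in G1 and switched on in S phase, when polymerases, clamps and the enzymes of deoxynucleotide supply copy the genome. Cyclin-dependent kinase 1 and the Polo and Aurora kinases then drive mitosis, and the anaphase-promoting complex ends it by marking cyclins and securin for destruction. Transcription of the 2 groups of genes differs in timing: replication genes are classically driven by E2F factors from late G1 on, and mitotic genes by complexes bound at the cell cycle homology region (CHR) together with the factor NF-Y at CCAAT boxes. Mouse embryonic stem cells cycle fast, with a short G1 phase, and keep both programmes high.

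Those textbook motifs were searched in the RefSeq windows (GRCm38.p6) that run from 250 bases before to 50 after each transcription start. Windows were available for 33 member genes, 15 of S phase (17 windows) and 18 of mitosis (18 windows). These include Rfc4 and Ccnb1, which were not measured on the arrays, and Mcm7 and Fen1 have 2 windows each. The motifs were TTTGAA and TTTAAA for the CHR, CCAAT for NF-Y, and TTTCCCGC, TTTCGCGC, TTTGCCGC and TTTGGCGC for E2F, read on both strands. An E2F motif stood in 41.2% of the S-phase windows and in 5.56% of the mitotic windows, against 2.85% of all 21263 protein-coding windows. A CHR stood in 88.9% of the mitotic windows and 29.4% of the S-phase windows, against 25% of all protein-coding windows. A CCAAT box stood in 88.9% of the mitotic and 64.7% of the S-phase windows, against 38.2% of all protein-coding windows. A CCAAT box and a CHR together stood in 83.3% of the mitotic and 23.5% of the S-phase windows, against 9.95% of all protein-coding windows. Median GC content was 58.3% in the mitotic, 57.3% in the S-phase and 56.3% in all protein-coding windows. The 7 S-phase windows with an E2F motif belong to Mcm3, Mcm5, Mcm6, Mcm7, Cdc6, Cdt1 and Pola1, and the only mitotic one belongs to Cdk1. A match says only that the letters are present, and binding was not measured.

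**Figure D1:**
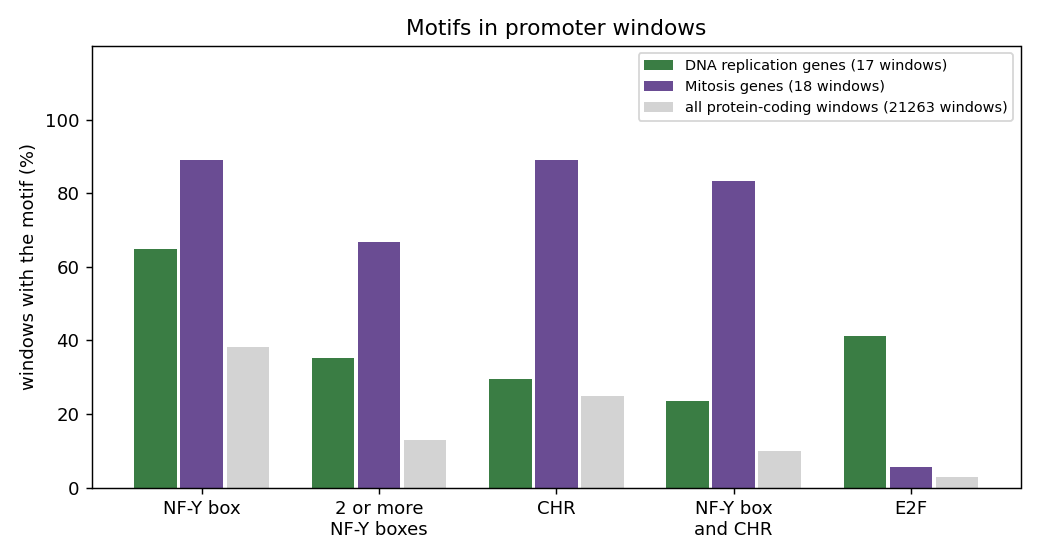
Share of promoter windows (y axis, percent) that hold each motif (x axis), for the DNA replication genes, the mitosis genes and all protein-coding windows, with NF-Y box standing for CCAAT. The mitosis genes reach 88.9% for the CHR and the replication genes 41.2% for E2F, against 25% and 2.85% of all protein-coding windows.

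Stretches just upstream of the start are printed to show how these motifs sit in 3 helicase genes and 4 mitotic genes, 5′ to 3′ on the gene's own strand, with motif letters in capitals and everything else in lower case. The Mcm5 stretch is chr8:75109349-75109508 (plus strand), that of Mcm6 chr1:128359706-128359825 (minus) and that of Mcm7 chr5:138171884-138172053 (minus). Of the 2 Mcm7 windows, the stretch comes from the one with E2F matches, and the other has none. The Cdc20 stretch is chr4:118437344-118437443 (minus), that of Kif11 chr19:37376282-37376381 (plus), that of Cdk1 chr10:69352913-69353052 (minus) and that of Bub1 chr2:127831860-127831959 (minus), all in GRCm38.p6.
Mcm5: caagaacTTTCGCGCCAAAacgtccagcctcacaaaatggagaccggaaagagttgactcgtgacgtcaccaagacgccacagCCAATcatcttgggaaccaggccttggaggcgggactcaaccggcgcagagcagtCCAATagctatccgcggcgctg
Mcm6: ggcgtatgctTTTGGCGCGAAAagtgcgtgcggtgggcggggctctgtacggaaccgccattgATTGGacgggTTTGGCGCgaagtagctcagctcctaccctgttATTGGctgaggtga
Mcm7: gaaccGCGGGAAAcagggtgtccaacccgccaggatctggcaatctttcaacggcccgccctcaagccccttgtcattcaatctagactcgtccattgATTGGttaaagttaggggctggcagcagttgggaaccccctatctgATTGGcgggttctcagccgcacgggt
Cdc20: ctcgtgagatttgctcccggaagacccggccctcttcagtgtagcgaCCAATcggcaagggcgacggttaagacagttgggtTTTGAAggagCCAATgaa
Kif11: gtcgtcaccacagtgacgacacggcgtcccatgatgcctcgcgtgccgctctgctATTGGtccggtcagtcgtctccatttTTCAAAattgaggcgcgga
Cdk1: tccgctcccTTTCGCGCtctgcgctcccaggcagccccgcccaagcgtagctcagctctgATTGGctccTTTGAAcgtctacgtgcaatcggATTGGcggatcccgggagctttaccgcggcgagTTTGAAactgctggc
Bub1: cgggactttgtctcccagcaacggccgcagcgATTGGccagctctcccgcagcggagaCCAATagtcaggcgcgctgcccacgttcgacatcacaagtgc
In Mcm5 and Mcm6 a pair of E2F matches on opposite strands overlap and form a single run of capitals, and Mcm6 has a further E2F match 47 bases upstream of the start. Counted back from the start to a motif's first printed base, a CHR in Cdc20 lies at 18 bases, between a CCAAT box at 53 and another at 8 bases, and in Kif11 the CHR lies at 19 bases with a CCAAT box at 45, both read on the opposite strand. Cdk1 holds all 3 kinds of motif, and the Bub1 stretch holds CCAAT boxes at 68 and 42 bases and no CHR.

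Across the whole array, 179 of 23521 features passed a limma adjusted p of 0.05 (0.761%), 143 of them higher with AA2G. Array medians lay between 5.06 and 5.10, and pairs of arrays correlated over all features at r = 0.990 to 0.992 within a group and 0.989 to 0.991 across groups. The stem cell markers Nanog, Sox2 and Zfp42 had mean levels of 11.17, 11.14 and 11.30 with AA2G, against 11.34, 11.15 and 11.25 untreated. The 10 pluripotency markers had mean levels from 5.11 (Dppa5a) to 11.43 (Utf1), with Esrrb and Pou5f1 at 7.33 and 7.55. The 10 summed to between 94.2 and 94.4 log2 units on AA2G arrays, against 95.2 to 95.4 on untreated arrays. In limma, 0 were called and 3 had an unadjusted p under 0.05. These 3 were lower with AA2G, Klf4 at -0.31, Nanog at -0.17 and Pou5f1 at -0.16, while Zfp42 went the other way, at 0.057. The markers' part in the values below was not tested. Markers of fibroblasts, primitive endoderm, mesoderm, trophoblast and neuroectoderm had mean levels of at most 7.82, with 0 of them called and 3 at an unadjusted p under 0.05.

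Of the 40 features of replication and mitosis genes, 0 passed the adjusted threshold in limma, against 0.761% of all tested features. At an unadjusted limma p of 0.05, 0 passed, against 9.71% of all tested features and 310 of the 4191 with a mean level above 8. The members' smallest adjusted p was 0.568, and their changes ran from -0.16 to 0.13 on the log2 scale. The S-phase genes had a median change of -0.052 and the mitotic genes of -0.053, against -0.0070 for all tested features and -0.011 for the 4191 tested features with a mean level above 8. In bulk RNA, a change in the share of cells in S phase or mitosis and a change in RNA per cell cannot be told apart.

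The 95% intervals, each for 1 gene taken alone, show what size of change in array signal the fit leaves room for. The median 95% interval of the 38 genes reached 0.17 log2 units to either side of the estimate. For 35 of them it lay within a 1.3-fold change in both directions. The exceptions were Gins2, Nusap1 and Bub1, and the widest interval, that of Bub1, ran from -0.46 to 0.42, which allows a fall of 1.37-fold or a rise of 1.34-fold. Among the S-phase genes, at the brightest feature of each, the farthest limits were a fall of 1.25-fold for Fen1 and a rise of 1.31-fold for Gins2. The dimmer Fen1 feature had a wider interval, from -0.38 to 0.26. A fit with the replicate number as a block, added after the data were seen, put the intervals of all 38 genes within 1.3-fold.

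**Figure D2:**
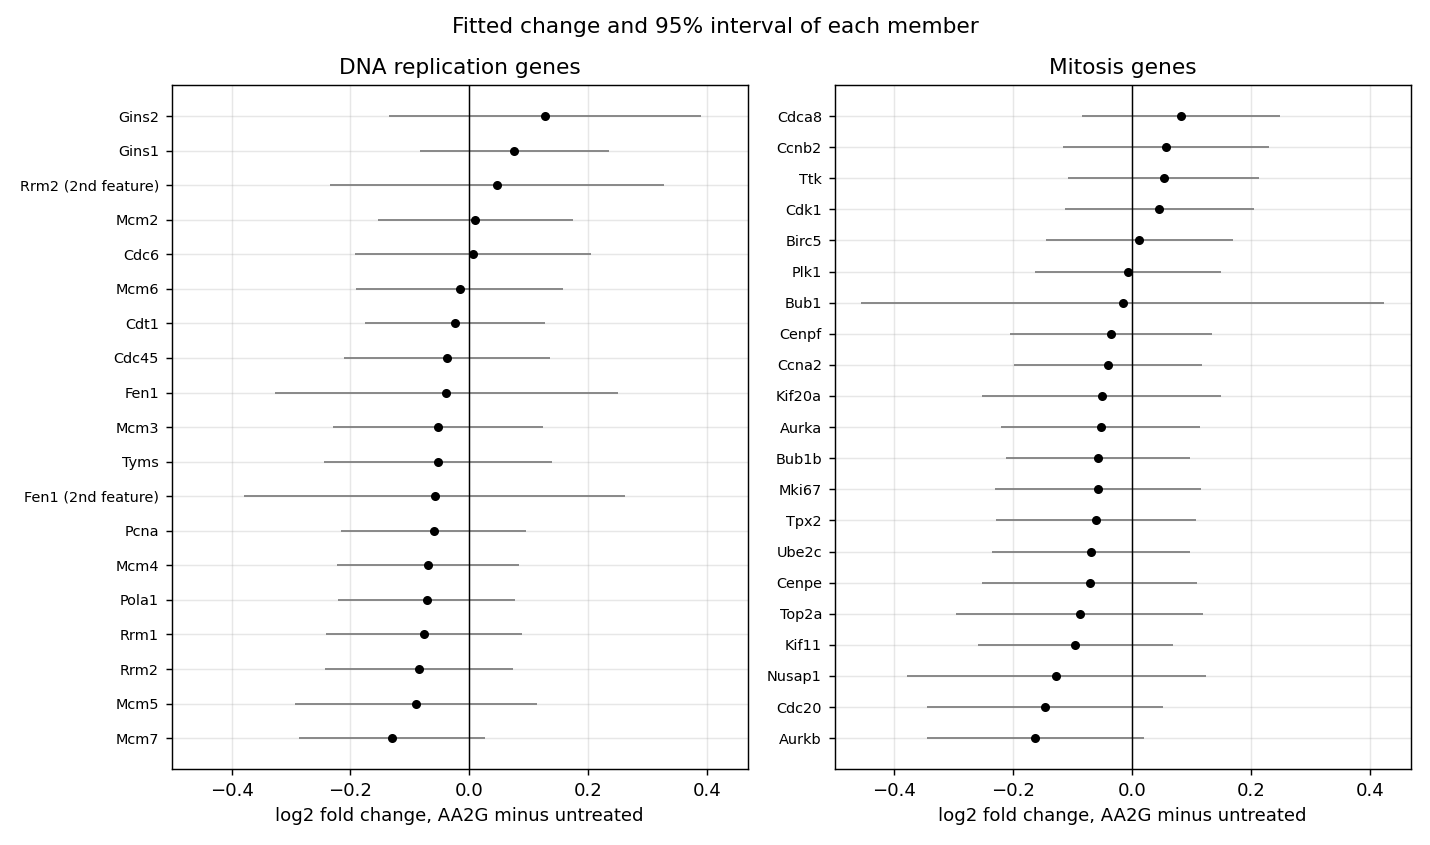
Fitted log2 change, AA2G minus untreated (x axis), of each member feature (rows), as points with 95% intervals as bars, for replication genes on the left and mitosis genes on the right. All 40 intervals cross 0, and the estimates run from -0.16 for Aurkb to 0.13 for Gins2.

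The 6 genes of the MCM helicase, the hexameric motor that unwinds DNA, had changes between -0.13 and 0.010, with a median of -0.061. Mcm7 (Entrez Gene 17220) measured 10.72, 10.77 and 10.67 on the AA2G arrays, against 10.86, 10.86 and 10.83 on the untreated arrays. All 3 AA2G values lay below the untreated ones, and the fitted change of -0.13 ± 0.068 (SE) did not pass (limma adjusted p = 0.603). Mcm5 (17218) measured 10.63, 10.80 and 10.71 with AA2G and 10.67, 10.91 and 10.82 untreated. Here the groups overlapped, at a change of -0.090 ± 0.088 (limma adjusted p = 0.823). Mcm4 was at -0.070 with groups that did not overlap, Mcm3 at -0.052, Mcm6 at -0.016 and Mcm2 at 0.010.

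The licensing factors Cdc6 and Cdt1, which load the helicase on origins, were at 0.0068 and -0.024. Cdc6 averaged 9.13 ± 0.091 with AA2G and 9.12 ± 0.11 untreated, and Cdt1 averaged 10.06 ± 0.025 with AA2G and 10.08 ± 0.016 untreated (SD, n = 3 each). Of the factors that activate the loaded helicase, Gins2 (272551), a subunit of the GINS complex, measured 8.67, 8.53 and 8.63 with AA2G, against 8.73, 8.31 and 8.41 untreated. Its change was 0.13 ± 0.11, the largest positive value of the 40 features, and the untreated array of number 1 was above all AA2G arrays (limma adjusted p = 0.793). Its partner Gins1 was at 0.076, and Cdc45, which joins MCM and GINS in the active helicase, at -0.037.

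Among the members that act in DNA synthesis and nucleotide supply, Pola1, the catalytic subunit of the polymerase that starts each strand, was at -0.072, the sliding clamp gene Pcna at -0.060, and the flap endonuclease gene Fen1 at -0.039, with -0.059 at its dimmer feature. Rrm2 (20135), the regulated subunit of ribonucleotide reductase, measured 9.68, 9.66 and 9.68 with AA2G, against 9.82, 9.72 and 9.74 untreated. All AA2G arrays lay below all untreated arrays, at a change of -0.085 ± 0.069 (limma adjusted p = 0.768). Its second feature, with a mean of 5.14, was at 0.047. The large subunit gene Rrm1 was at -0.077, again with groups that did not overlap, and Tyms, which makes thymidylate, at -0.053.

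Among the mitotic genes, Aurkb (20877), the kinase of the chromosomal passenger complex, had the largest change. It measured 8.48, 8.39 and 8.54 with AA2G, against 8.73, 8.57 and 8.60 untreated. The groups did not overlap, and the change of -0.16 ± 0.079 did not pass (limma adjusted p = 0.568). Of its partners in that complex, Cdca8 (borealin) was at 0.082, Birc5 (survivin) at 0.012 and the scaffold gene Incenp, which is not among the 40 and was added here after its value was seen, at -0.18. Aurka, the Aurora kinase of the spindle poles, was at -0.053, and Plk1, the Polo kinase of mitotic entry, at -0.0071. Cdk1, the kinase that drives mitosis, was at 0.046, and its cyclins Ccnb2 and Ccna2 were at 0.057 and -0.041.

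The anaphase-promoting complex is represented by its activator Cdc20 and its ubiquitin-conjugating enzyme Ube2c. Cdc20 (107995) measured 10.03, 10.25 and 10.08 with AA2G, against 10.18, 10.35 and 10.28 untreated, a change of -0.15 ± 0.086 (limma adjusted p = 0.659). The highest AA2G array exceeded the lowest untreated one. Ube2c was at -0.069. The spindle checkpoint genes Bub1, Bub1b and Ttk, which hold anaphase until chromosomes are attached, were at -0.016, -0.057 and 0.053.

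Of the members that act on the spindle or on chromosomes, Kif11 (16551), the kinesin that pushes spindle poles apart, measured 10.25, 10.20 and 10.25 with AA2G, against 10.39, 10.26 and 10.34 untreated. The groups were apart by little, at a change of -0.096 ± 0.071 (limma adjusted p = 0.747). Nusap1 (108907), which bundles spindle microtubules, measured 9.17, 8.94 and 9.08 with AA2G, against 9.40, 9.06 and 9.10 untreated. Its groups overlapped, at -0.13 ± 0.11 (limma adjusted p = 0.783). Top2a, which untangles sister DNA, was at -0.089, the kinetochore motor gene Cenpe at -0.072, Tpx2, which promotes spindle microtubule assembly, at -0.061, and Mki67, the gene of the proliferation antigen Ki-67, at -0.058. The kinesin gene Kif20a, needed in cytokinesis, was at -0.052 and the kinetochore gene Cenpf at -0.035.

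**Figure D3:**
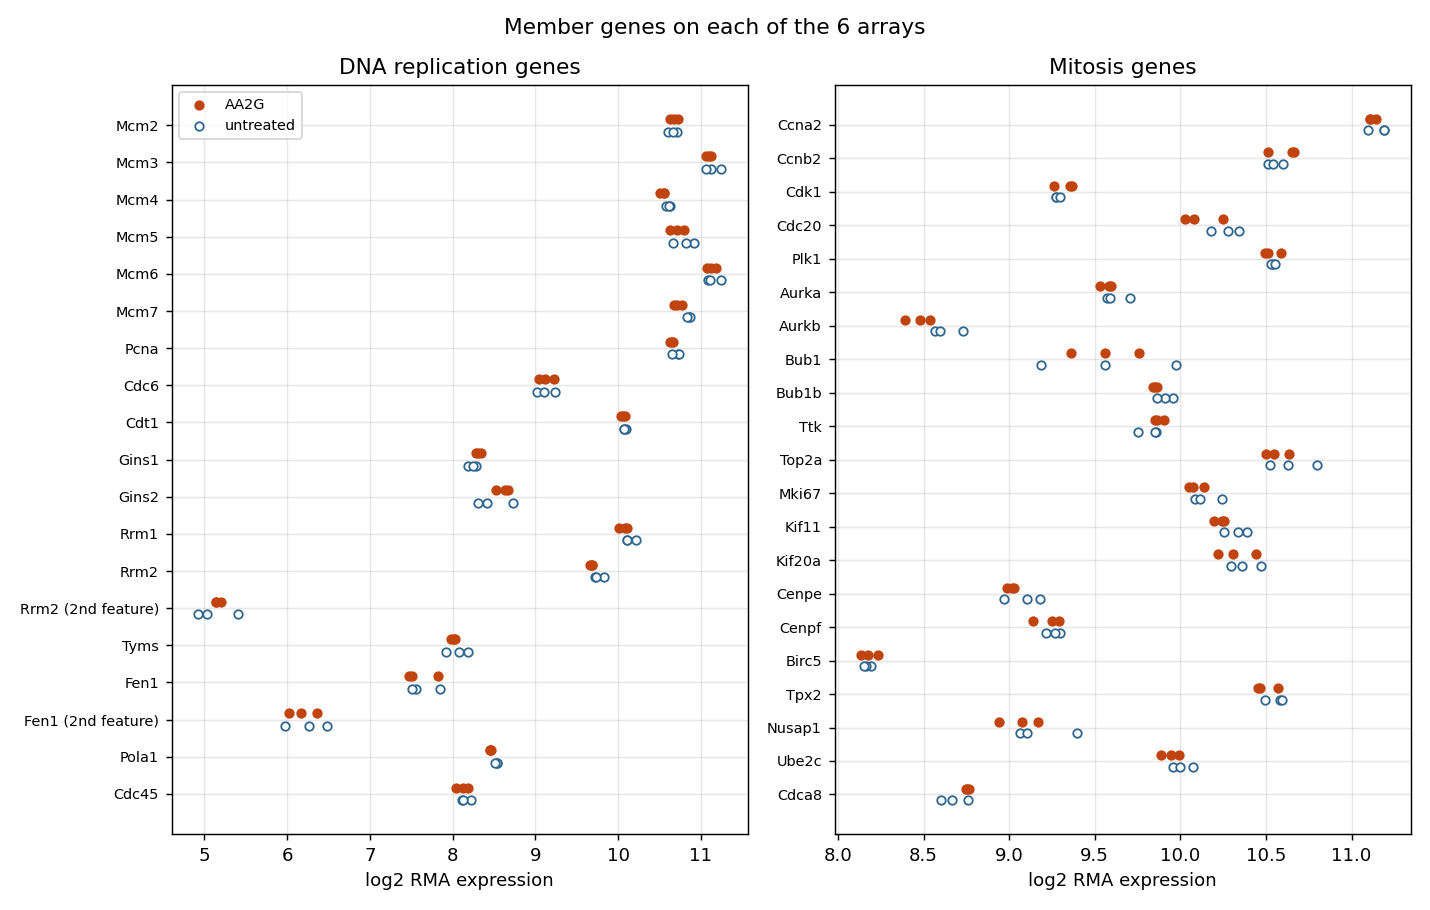
Log2 RMA expression (x axis) of every member feature (rows) on each array, AA2G as filled points above untreated as open points, with 3 arrays a group. The points of both groups lie close together. On 7 of the 40 features (17.5%) the groups do not overlap, all lower with AA2G, among them Mcm7 and Aurkb. Of all tested features, 15.7% do not overlap in either direction and 8.48% do so lower with AA2G.

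Small negative values were more frequent than positive ones. Of the 38 genes 29 were negative (76.3%), against 52.3% of all tested features and 54.6% of those with a mean level above 8. On 7 of the 40 features (17.5%) the AA2G and untreated arrays did not overlap. That is near the share in either direction, 15.7% of all tested features and 19.6% of those with a mean level above 8. By group, it was 5 of 19 S-phase features (26.3%) and 2 of 21 mitotic features (9.52%). All 7 were lower with AA2G (Mcm4, Mcm7, Rrm1, Rrm2, Pola1, Aurkb and Kif11). That direction was shown by 8.48% of all tested features and by 475 of the 4191 with a mean level above 8. On 20 features (50.0%) the AA2G array was the lower at each of the 3 replicate numbers, against 20.0% of all tested features and 29.1% of those with a mean level above 8. Members were measured on the same arrays and are not independent of one another, so these shares carry no test.

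Set number by number, the S-phase genes had a median change of -0.055 at number 1, -0.048 at number 2 and -0.038 at number 3. The mitotic genes had medians of -0.085, -0.024 and -0.036. Of 21 mitotic genes, 18 were lower with AA2G at number 1, 13 at number 2 and 16 at number 3, and of 17 S-phase genes 13, 13 and 11. These are 85.7%, 61.9% and 76.2% of the mitotic and 76.5%, 76.5% and 64.7% of the S-phase genes, against 52.1%, 52.6% and 51.6% of all tested features. Of the tested features with a mean level above 8, 60.5%, 48.2% and 55.3% were lower at numbers 1, 2 and 3. Aurkb and Nusap1 differed most at number 1, by -0.25 and -0.23, and least at number 3, by -0.060 and -0.028. Mcm7 differed by -0.14, -0.093 and -0.16, and Cdc20 by -0.15, -0.097 and -0.19. Gins2 changed sign between numbers, at -0.054, 0.22 and 0.22, as did Bub1, at -0.22, 0.17 and -0.0017.

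**Figure D4:**
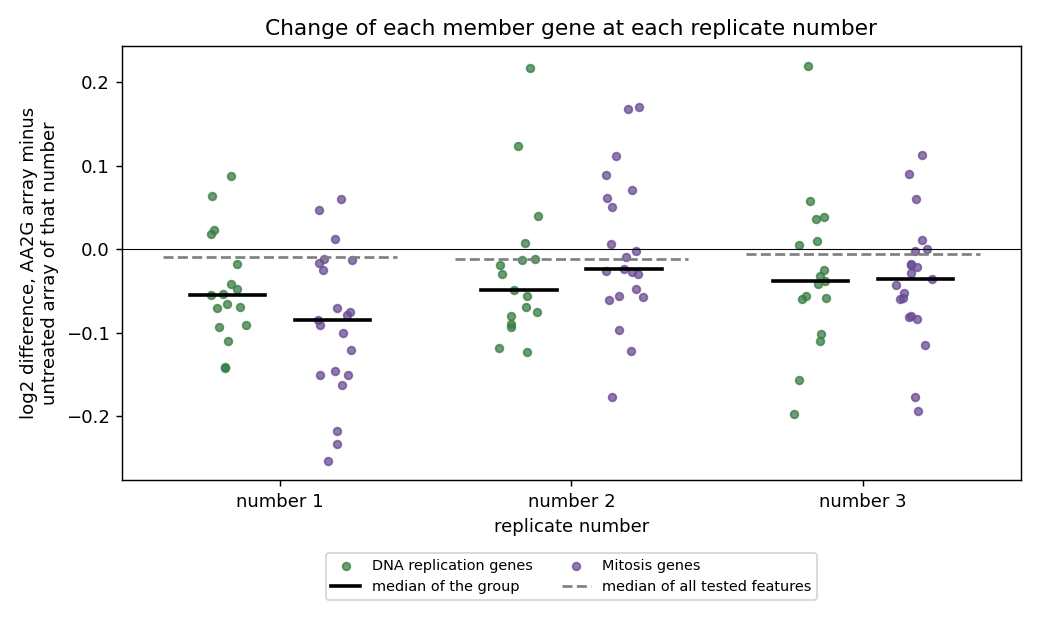
Log2 difference between the AA2G array and the untreated array of the same replicate number (y axis) for each member gene (points), by number (x axis), with replication genes left of mitosis genes, group medians as black bars and the median of all tested features dashed. Medians lie between -0.085 and -0.024, with genes on both sides of 0 at every number.

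For most members the span between cultures, in at least 1 of the groups, was larger than the size of the fitted change. Mcm4, Mcm7, Pola1 and Aurkb were the exceptions. Bub1 measured 9.76, 9.36 and 9.56 with AA2G, against 9.98, 9.19 and 9.56 untreated, a span of 0.40 with AA2G and 0.79 untreated around means that differed by -0.016. In both groups number 1 was the highest and number 2 the lowest. Fen1 measured 7.51, 7.82 and 7.47 with AA2G, against 7.56, 7.85 and 7.51 untreated, with number 2 the highest in both groups. Bub1 and Fen1 were picked here after their values were seen. Over the 40 features, the deviations of same-numbered AA2G and untreated arrays from their group means correlated at r = 0.82 for number 1, 0.84 for number 2 and 0.19 for number 3. The 4191 tested features with a mean level above 8 gave 0.69, 0.66 and 0.27. These correlations run across features of the same arrays, deviations of 3 arrays sum to 0, and the labels do not say whether cultures of one number shared a passage or day.

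**Figure D5:**
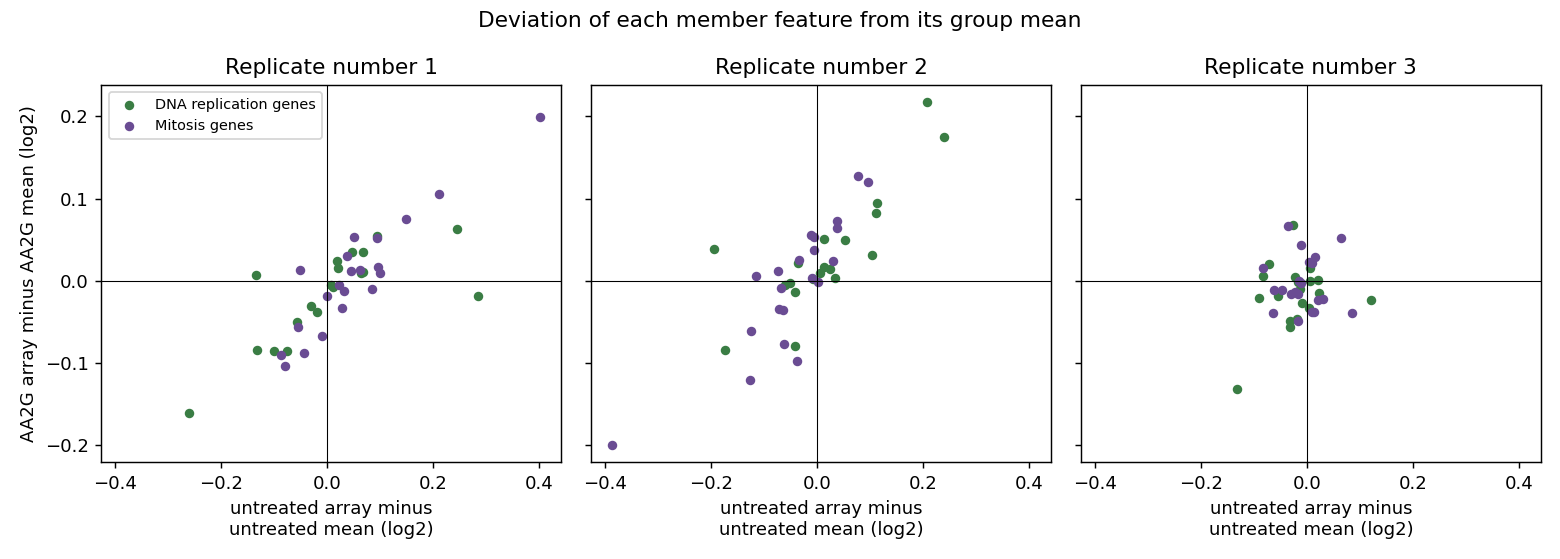
Deviation of each member feature from its group mean, on the AA2G array (y axis, log2) and on the untreated array (x axis, log2) of the same replicate number, 1 panel a number, with replication and mitosis genes in different colours. Points follow the rising diagonal at numbers 1 and 2 (r = 0.82 and 0.84) and form a cloud at number 3 (r = 0.19).

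Other genes of the same pathways were read from 2 longer lists. Of 54 other replication genes, 52 were measured, on 56 features, and 0 passed in limma, and at an unadjusted p of 0.05 3 features were higher, against 4.66% of all tested features, and 0 were lower, against 5.06%. Their median change was 0.0081, and 25 of the 52 were negative (48.1%), against 52.3% of all tested features. The 5 with the smallest p were the primase subunit Prim2 at 0.27 ± 0.079 (SE; limma adjusted p = 0.270), the polymerase epsilon subunit Pole4 at 0.23, the DNA ligase Lig1 at 0.26, and the origin firing factors Ticrr at -0.19 and Mcm10 at -0.16. Prim2 measured 10.30, 10.19 and 10.32 with AA2G, against 10.11, 9.97 and 9.95 untreated, with no overlap. Lig1 measured 9.57, 9.51 and 9.55 with AA2G, against 9.45, 9.11 and 9.30 untreated, again with no overlap. Both changes lie above the range of the members' changes.

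Of 80 other mitosis genes, 76 were measured, on 80 features, and 0 passed in limma, while at an unadjusted p of 0.05 1 feature was higher, against 4.66% of all tested features, and 3 were lower, against 5.06%. The median change was -0.035, and 51 of the 76 were negative (67.1%), against 52.3% of all tested features. Pttg1 (30939), the gene of securin, which restrains the protease that parts sister chromatids, came nearest to the threshold. It measured 7.78, 7.68 and 7.76 with AA2G, against 7.26, 7.38 and 7.42 untreated. All AA2G arrays were above all untreated arrays, and the change of 0.39 ± 0.076 did not pass (limma adjusted p = 0.0879), although it passed with a trended robust prior (0.0412), with array weights (0.0351) and with brighter features only (0.0420). Psrc1, a spindle protein, was at -0.25 ± 0.067 (limma adjusted p = 0.218), with 9.30, 9.28 and 9.33 with AA2G, against 9.60, 9.53 and 9.53 untreated. The midbody gene Cep55 was at -0.18, the kinesin genes Kif2c and Kif18b at -0.17 and -0.15.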

How the data were processed

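RNA of 6 cultures was hybridised to Mouse Gene 2.0 ST arrays. The deposited log2 values come from RMA (background correction, quantile normalization and a summary per feature), run in Affymetrix Expression Console according to the submitters' processing notes, per the labels. Software versions and filters were not given in the sources used here. RMA equalises the distributions of the arrays, so a change in total RNA per cell is not seen. There are no detection calls, and precision is limited by the number of arrays.

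Of 41345 features, the 23521 with exactly 1 symbol in the platform annotation entered a linear model of limma 3.58.1 under R 4.3.3 (lmFit, eBayes with the default prior, 6 arrays, no covariate, two-sided, Benjamini-Hochberg over the 23521 features, threshold 0.05). Errors of fold changes are fitted SEs, intervals are the fit's 95% intervals, and the p-values measure the spread between 3 cultures a group. With 3 arrays a group, the smallest p of an exact permutation test is 0.1. Of a gene's features, the brightest over the 6 arrays stands for it in medians, in counts of genes and in intervals given per gene. The fit was tested on simulated data with independent noise and no effect of replicate number, so that test does not cover such an effect.

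The members and lists were chosen with earlier results of these data known. Every member is named. Array values are given for the 4 members of each group with the largest absolute fold change, and the 5 genes with the smallest p are named from each list of other pathway genes. Alternatives were a repeated quantile normalization, a shift of all arrays to 1 median, array weights, a trended robust prior, ordinary variances, a block for the replicate number, a filter on dim features (mean above percentile 40), all features, 1 feature per gene, and leaving out each array in turn. Motifs were searched on both strands in RefSeq windows (GRCm38.p6) with Python 3.11.15.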

Additional observations from a re-analysis of the deposited data

How the results depend on the processing

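In the 15 alternatives run, 0 S-phase and 0 mitotic members were called, and the smallest adjusted p of a member was 0.212. Calls over all tested features were 277 with a trended robust prior, 496 with array weights and 13 with ordinary variances, and 64 to 131 with an array left out, lowest without untreated replicate 3. Pttg1 was the 1 other mitosis gene called with a trended robust prior, with array weights and with brighter features only. The S-phase median was -0.029 with array weights and ran from -0.067 to -0.043 with an array left out. The mitotic median ran from -0.060 to -0.024 there.

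Of the member features, 13 changed sign with some array left out, within these ranges: Mcm2 -0.018 to 0.037, Mcm6 -0.046 to 0.031, Cdc6 -0.044 to 0.064, the dimmer Rrm2 feature -0.050 to 0.19, Tyms -0.12 to 0.0081, Fen1 -0.15 to 0.066 and -0.19 to 0.061 at its 2 features, Cdc45 -0.071 to 0.0029, Plk1 -0.035 to 0.012, Bub1 -0.21 to 0.18, Kif20a -0.11 to 0.00024, Cenpf -0.067 to 0.0085 and Birc5 -0.015 to 0.036. Cdc45 also turned to 0.0044 with array weights. The cause was not tested.

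With the replicate number as a block, 155 features were called, 0 members among them, and Pttg1 had an adjusted p of 0.146. Over all tested features, the deviations of same-numbered arrays from their group means correlated at r = 0.23, 0.22 and 0.017 for numbers 1, 2 and 3, and the third is below 0.1, so the reported values come from the fit without a block. Whether the numbers pair the cultures is not settled by this: among features with a mean level above 8 all 3 exceed 0.1 (0.69, 0.66 and 0.27), and each array correlated best with the array of its own number. With the block, a setting added after the data were seen for the intervals, all 38 genes had 95% intervals within 1.3-fold, against 35 without it, and all 40 member intervals still covered 0. Both Fen1 features changed sign with some array left out. Within numbers 1, 2 and 3 the brighter was at -0.048, -0.029 and -0.038, and the dimmer at 0.043, -0.12 and -0.096. A link between the replicate numbers and the sign changes was not tested.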
